A study of Mus musculus with 20 samples.

Results

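The 32 genes described here mark B and T lymphocytes and were chosen as a gauge of lymph node RNA in each inguinal fat library, though their source was not tested. They were taken from a list of names, 9 B cell genes and 23 T cell genes, out of the 36611 genes for which transcript values could be summed. All 32 were found, each under 1 gene identifier. The libraries came from inguinal white adipose tissue (iWAT) of 20 female mice, 6 months old, labelled C57BL/6 (the floxed line was on C57BL/6 N Tac and the Cre line on C57BL/6 J), with 5 mice in each of 4 groups. Control littermates carried Tmem120a fl/fl alleles, in which exons 2 and 3 are flanked by loxP sites, without Cre, and were kept for 15 weeks on a diet low in fat (LFD, with 10.5% fat) or high in fat (HFD, with 58% fat). Ad-Tmem120a-/- mice carried the same floxed alleles with Cre under the adiponectin promoter, which directs the deletion to adipocytes, and were fed the same diets. Mice were numbered 1 to 5 (control, LFD), 6 to 10 (knockout, LFD), 11 to 15 (control, HFD) and 17 to 21 (knockout, HFD). Whether the node was cut from the fat pad at dissection is not given in the sources used here.

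The inguinal lymph node lies embedded in the subcutaneous fat pad of the mouse. B cells gather in its follicles, where they bind antigen through a receptor whose signal passes through the Cd79a and Cd79b chains, while T cells occupy the zone around them and read peptide antigen through a receptor built on the Cd3 chains. Naive lymphocytes enter from the blood across high endothelial venules. Fat itself also holds scattered T cells, including Foxp3-positive regulatory T cells, so these transcripts need not come only from the node.

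In the RefSeq promoter table (build GRCm38.p6) 23 of the 32 members were found, and 6 upstream stretches are shown as examples of the roles described below: Cr2 stands for the B cell genes, Cd3d and Cd3e for the T cell receptor, and Lat, Il7r and Foxp3 for T cell signalling, survival and the regulatory lineage. Each line gives the 150 bases before the annotated start, 5′ to 3′ on the strand of the gene, with capitals on letters that matched a searched motif.
Cr2: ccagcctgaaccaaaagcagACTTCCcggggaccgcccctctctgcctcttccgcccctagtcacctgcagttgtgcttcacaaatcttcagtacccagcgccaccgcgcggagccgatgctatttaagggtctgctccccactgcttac
Cd3d: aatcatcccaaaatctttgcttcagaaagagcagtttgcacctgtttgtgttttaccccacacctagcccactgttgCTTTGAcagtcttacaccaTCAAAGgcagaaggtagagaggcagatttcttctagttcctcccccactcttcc
Cd3e: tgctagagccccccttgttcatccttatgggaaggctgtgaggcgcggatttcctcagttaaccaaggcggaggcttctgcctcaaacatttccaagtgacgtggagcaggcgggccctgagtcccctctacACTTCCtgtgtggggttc
Lat: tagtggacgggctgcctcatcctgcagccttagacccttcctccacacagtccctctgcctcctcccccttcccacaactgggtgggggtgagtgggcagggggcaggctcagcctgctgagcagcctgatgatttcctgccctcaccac
Il7r: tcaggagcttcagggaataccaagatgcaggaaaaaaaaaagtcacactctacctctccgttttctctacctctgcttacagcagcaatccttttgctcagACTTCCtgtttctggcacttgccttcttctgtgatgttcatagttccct
Foxp3: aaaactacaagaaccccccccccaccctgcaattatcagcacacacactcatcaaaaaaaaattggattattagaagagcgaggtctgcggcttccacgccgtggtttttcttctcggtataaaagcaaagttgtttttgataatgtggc
The Cr2 stretch lay at chr1:195176720-195176869 on the minus strand. The Cd3e stretch lay at chr9:45009612-45009761 on the minus strand. The Cd3d stretch lay at chr9:44981636-44981785 on the plus strand. The Lat stretch lay at chr7:126369569-126369718 on the minus strand. The Il7r stretch lay at chr15:9529877-9530026 on the minus strand. The Foxp3 stretch lay at chrX:7579526-7579675 on the plus strand. In all, 4 motifs were searched on both strands: GGAAGT (the core bound by ETS factors), CTTTGA (TCF and LEF factors, the family of the members Tcf7 and Lef1), TGTGGT (RUNX factors) and ATGCAAAT (the octamer bound by Oct factors). GGAAGT was found before 8 of the 23 members and before 13.6% of all 32851 promoters in the table. CTTTGA was found before 3 members, all T cell genes (Cd3d, Zap70 and Bcl11b), against 7.93% of all promoters, and it stood at 2 places before Cd3d, 73 and 54 bases from the start. TGTGGT was found before Lck alone (8.40% of all promoters) and the octamer before Blnk alone (0.998%). A match is a description of the letters in these windows, and the stretches before Lat and Foxp3 held none of the 4 motifs. Where a member had more than 1 entry in the promoter table, as Foxp3 with 2, only the first was used for the member. These coordinates are on GRCm38.p6, while the expression values rest on mm9, so these sets of positions are not interchangeable.

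In all, 3 sets of members were neighbours in the mm9 annotation. Cd3g (chr9:44777655-44788514, minus strand), Cd3d (chr9:44789876-44795135, plus strand) and Cd3e (chr9:44806826-44817673, minus strand) formed the Cd3 cluster. Cd28 (chr1:60773644-60830203), Ctla4 (chr1:60943844-60972676) and Icos (chr1:61034771-61057164), which encode receptors that raise or restrain T cell activation, lay in a row on the plus strand of chromosome 1. Cd8b1 (chr6:71272830-71287471) and Cd8a (chr6:71323421-71329165), the coreceptor chains of cytotoxic T cells, were side by side on chromosome 6. Il7r, the receptor chain for the survival cytokine Il7, lay at chr15:9435916-9459631.

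Sequencing depth ranged from 54605101 to 92387737 estimated counts per library. Tmem120a, the targeted gene, averaged 85.4 ± 28.4 TPM (SD, n = 5) in control LFD mice, 41.5 ± 21.9 TPM in knockout LFD mice, 119 ± 44.5 TPM in control HFD mice and 51.6 ± 26.7 TPM in knockout HFD mice, with overlapping ranges on both diets (57.9 to 132 against 21.5 to 74.0 TPM, and 83.3 to 196 against 29.5 to 89.7 TPM). TPM is a transcript level scaled to transcript length and library total, so levels can be set side by side between genes. Skeletal muscle genes differed far more than lymphocyte genes between libraries: their sum ran from 8.14 to 3714 TPM and was 8.14 to 58.1 TPM in control HFD mice against 45.0 to 1623 TPM in knockout HFD mice.

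The summed level of the 32 members differed widely among mice of the same group. On LFD the sum was 30.1, 234, 290, 346 and 90.1 TPM in control mice 1 to 5, and 372, 314, 209, 219 and 349 TPM in knockout mice 6 to 10. On HFD it was 91.7, 63.3, 336, 264 and 312 TPM in control mice 11 to 15, and 317, 191, 127, 312 and 139 TPM in knockout mice 17 to 21. Every pair of groups overlapped, and low libraries (mice 1, 5, 11 and 12, all under 100 TPM) were found among controls on both diets. In bulk tissue fewer lymphocytes and less RNA per lymphocyte cannot be told apart.

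**Figure D1:**
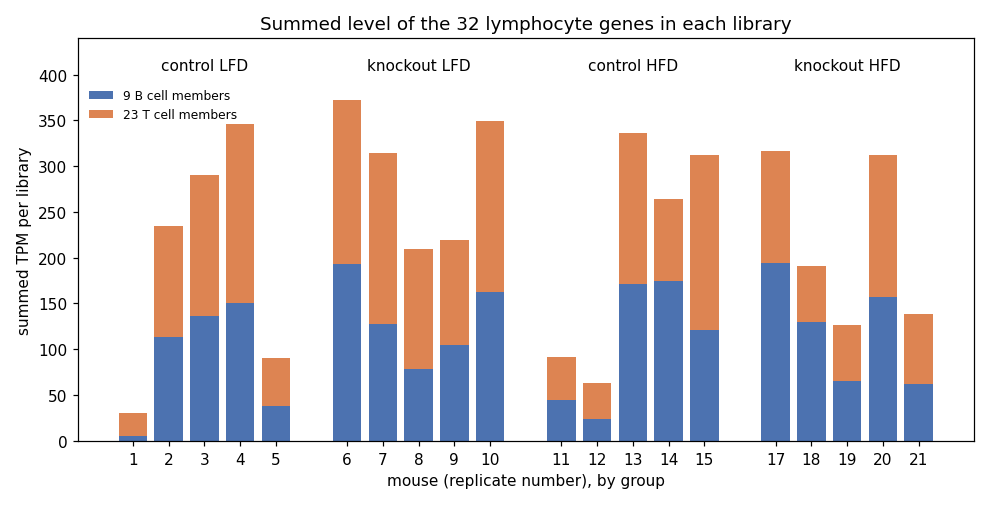
Summed TPM of the 9 B cell genes (blue) and 23 T cell genes (orange) for each mouse, in 4 groups of 5. Control LFD mouse 1 has 5.73 TPM of B cell genes and 24.3 TPM of T cell genes, the lowest bar of the 20, and the highest bar is 372 TPM in knockout LFD mouse 6.

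Control LFD mouse 1 stood apart and is set aside in turn in each result that rests on it. It was the lowest of the 20 libraries for 24 of the 32 members, and 31 members were below 50% of their median over the 20 libraries. Its B cell genes made up 19.04% of the summed TPM, against 37.4% to 67.9% in the other 19 libraries. Glycam1, a high endothelial venule mucin, was also low in mouse 1, at 0.349 TPM against 13.2 to 739 TPM in the others. So was Cxcl13, the chemokine that draws B cells into follicles, at 2.27 TPM against 9.81 to 129 TPM. Whether cells outside the node contributed to the Glycam1 level was not tested.
What was left in mouse 1 differed from gene to gene. Relative to the median of the other 19 libraries, Fcer2a (the low-affinity IgE receptor of B cells) was at 0.0890%, Ms4a1 (CD20) at 0.209%, Cd79a at 0.240% and Pax5, the transcription factor that fixes B cell identity, at 0.742%. The T cell kinase Zap70 was at 0.963%, Cd8b1 at 3.92% and Cd4 at 12.1%. Cd3e and Il7r kept 18.9% and 21.1%, and Cd28 kept 41.1%. Blnk, a B cell adaptor that myeloid cells also make, kept 43.5%, and Cd247, the zeta chain shared with natural killer cells, kept 52.7%, the highest share of the 32.

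The members rose and fell together from library to library. The median Pearson r of log2(TPM + 0.1) over the 20 libraries was 0.91 for the 36 pairs of B cell genes, 0.82 for the 253 pairs of T cell genes and 0.75 for the 207 pairs of a B with a T cell gene. Without mouse 1 these medians were 0.85, 0.79 and 0.70. The mean of the B cell members followed that of the T cell members with r = 0.86 and Spearman's rho = 0.75 over 20 libraries, with r = 0.84 without mouse 1 and r = 0.78 without the 2 libraries farthest from the median (mouse 1 and control HFD mouse 12). The members least like the others were Blnk (median r of 0.60 with the other members), Cd6 (0.62) and Cd247 (0.67). All points share 4 groups of mice and 1 scaling per library, so these values describe the libraries and carry no test.

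**Figure D2:**
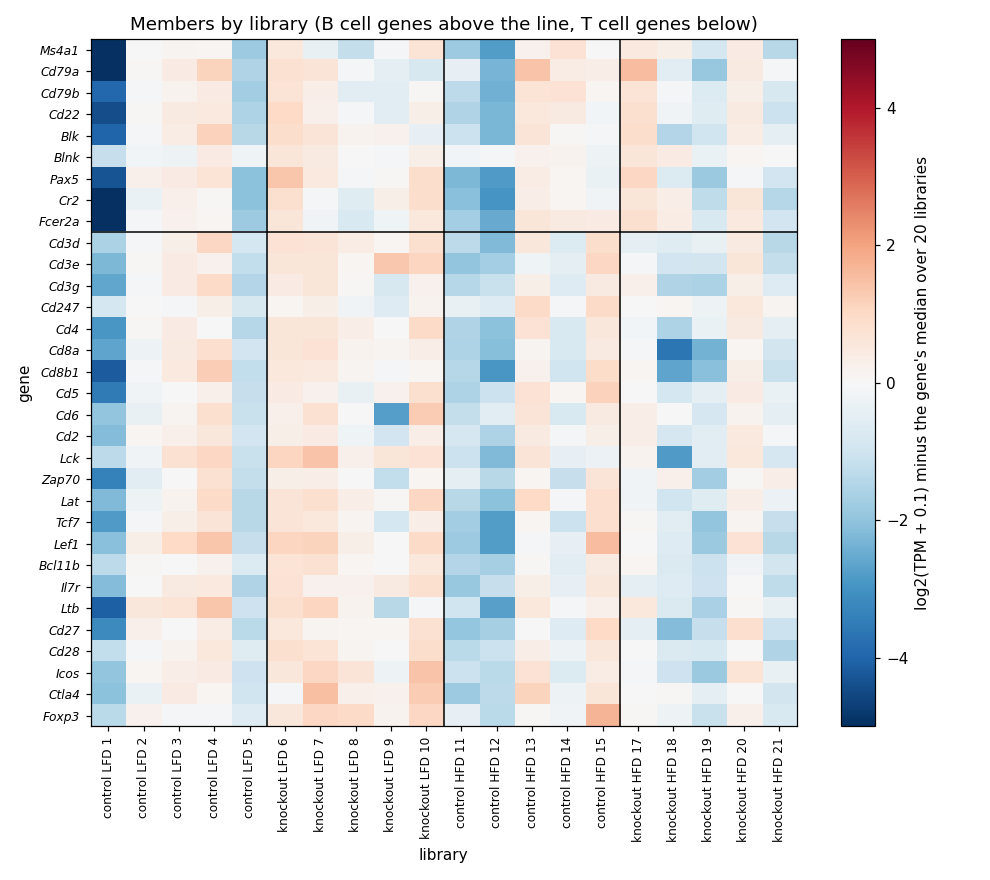
Each cell is the log2(TPM + 0.1) of 1 gene in 1 library minus that gene's median over the 20 libraries, with B cell genes above the horizontal line and T cell genes below it. The column of control LFD mouse 1 is the bluest, control HFD mouse 12 is below 50% of the median for 29 of 32 members, and single dark cells such as Cd6 in knockout LFD mouse 9 (0.0945 TPM) or Cd8a in knockout HFD mouse 18 (0.180 TPM) break the columns.

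Genes outside the list with the same pattern included known lymphocyte genes. The 10 genes with the highest Pearson r of log2(TPM + 1) to the mean of the members, over 20 libraries, were Gpr18 (0.966), Nsg2 (0.963), Fam65b (0.954), Lax1 (0.946), Il2rg (0.943), Ikzf3 (0.943), Ipcef1 (0.941), H2-Ob (0.940), Cxcr5 (0.940) and Stat4 (0.939). Il2rg is the chain shared by several cytokine receptors and Cxcr5 the receptor that answers Cxcl13. Of 15574 genes ranked, 193 (1.24%) had r above 0.8, among them 27 of the 31 members ranked, and 139 did without mouse 1. Each member is part of the members' mean, which raises its own r, so the 27 of 31 cannot be set against the 1.24%. Glycam1 had r = 0.89 with the members (0.80 without mouse 1) and Cxcl13 r = 0.88 (0.78 without it), on log2(TPM + 0.1). Other genes of the node stroma and venules followed the members less closely. Ccl19 had r = 0.70 (0.59 without mouse 1), Madcam1 r = 0.51 (0.33) and Siglec1 r = 0.49 (0.49). For other cell types r was taken with the log2 of the list's summed TPM, with nothing added, so the most abundant genes weigh most. It was -0.38 for white adipocyte genes (-0.50 without mouse 1), -0.37 for blood endothelium genes (-0.50) and 0.36 for macrophage genes (0.08). For skeletal muscle genes it was 0.01 (-0.07) and for mammary and skin epithelium genes -0.05 (-0.06).

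**Figure D3:**
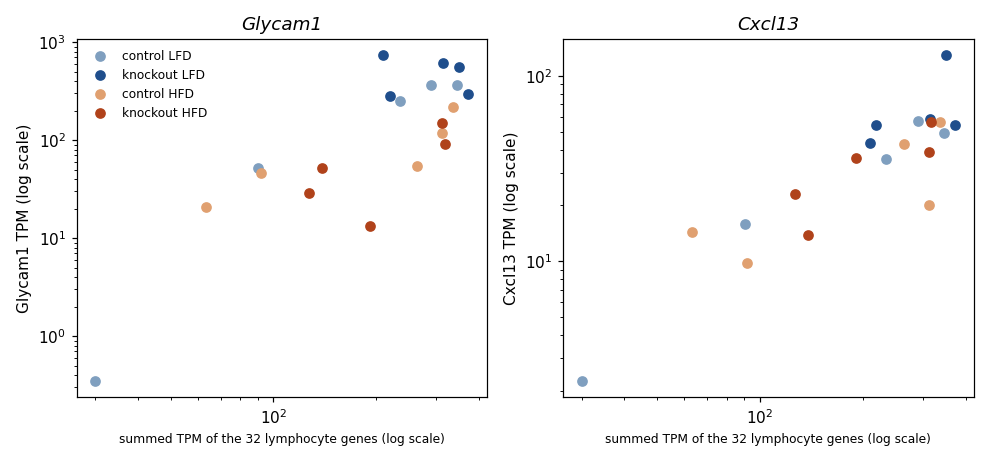
Glycam1 (left) and Cxcl13 (right) in TPM against the summed TPM of the 32 members, 1 point for each of 20 mice, both axes logarithmic, coloured by group. Both genes climb with the sum, and at like sums the knockout LFD mice (281 to 739 TPM of Glycam1) lie above the knockout HFD mice (13.2 to 149 TPM).

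The labelled tissue, and a node within it, were checked against marker genes. White adipocyte genes summed to between 16130 and 33460 TPM in every library. Of the 11 node stroma and venule genes in the annotation, 7 passed the filter of 0.5 TPM on average over the 20 libraries. Glycam1, Cxcl13 and Ccl19 (a T zone chemokine) were detected in all 20 libraries, with Glycam1 lowest in mouse 1. Whether Glycam1 came only from the node was not tested. Ccl21a was listed at 0 in each library, and as this gene has near-identical copies its reads could have been assigned elsewhere. Genes of thymocytes and lymphocyte precursors (Rag1, Rag2, Dntt, Ptcra, Vpreb1 and Igll1) summed to at most 0.767 TPM, and Ptcra was at 0 throughout.

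Among the B cell genes, Ms4a1 and Cd79b were the most abundant, with means of 31.5 and 33.0 TPM over the 20 libraries. Ms4a1 was at 0.0750, 36.0, 38.9, 38.1 and 10.1 TPM in control LFD mice and at 50.8, 27.2, 15.3, 32.8 and 57.2 TPM in knockout LFD mice. On HFD it was at 9.88, 5.09, 41.0, 58.6 and 35.0 TPM in control mice and at 50.0, 43.6, 19.3, 47.1 and 13.4 TPM in knockout mice. The 4 groups overlapped throughout, and mice 1, 5, 11 and 12 were again the low ones among controls.
Cr2, the complement receptor of follicular B cells and follicular dendritic cells, was at 0.263, 13.9, 20.9, 18.1 and 4.14 TPM in control LFD mice and at 31.1, 17.2, 11.4, 21.4 and 32.4 TPM in knockout LFD mice. On HFD it was at 4.03, 2.20, 22.1, 18.9 and 15.8 TPM in control mice and at 26.6, 22.5, 7.16, 27.2 and 6.57 TPM in knockout mice. Mouse 10 had the highest Cr2 level, yet its Cd79a level (3.66 TPM) was below that of mice 6 and 7 (11.01 and 10.1 TPM), so that B cell genes did not order the mice alike.
The other B cell genes were lower. Cd22, an inhibitory receptor, ranged from 1.31 to 13.6 TPM in the 19 libraries other than mouse 1, Fcer2a from 1.22 to 12.98 TPM, Pax5 from 0.232 to 6.06 TPM and the kinase Blk from 0.246 to 3.67 TPM. Blnk varied least, with a highest value 1.91 times the lowest in those 19 libraries, against 26.1 times for Pax5.

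Among T cell genes, the receptor chain Cd3e was at 1.30, 6.88, 8.65, 7.65 and 2.72 TPM in control LFD mice and at 9.95, 9.95, 6.94, 16.96 and 13.9 TPM in knockout LFD mice. On HFD it was at 1.59, 1.94, 5.66, 4.59 and 13.4 TPM in control mice and at 6.19, 3.28, 3.42, 9.94 and 2.77 TPM in knockout mice. The lowest knockout LFD value, 6.94 TPM, was passed by 2 of the 5 control LFD mice and by 1 mouse of each HFD group.
Cd4, the coreceptor of helper T cells, averaged 7.81 TPM over the 20 libraries and Cd8a 2.98 TPM. Cd8a was at 5.19, 5.69, 3.83, 3.75 and 4.23 TPM in knockout LFD mice and at 3.15, 0.180, 0.576, 3.59 and 1.71 TPM in knockout HFD mice. These 2 groups did not overlap, while control mice covered 0.451 to 6.08 TPM on LFD and 0.689 to 4.65 TPM on HFD. The most abundant T cell members were Cd2, an adhesion receptor (mean 14.2 TPM), Il7r (11.9 TPM) and Cd3g (10.9 TPM), and the least abundant was Foxp3, the transcription factor of regulatory T cells (0.458 TPM).
The remaining T cell members are given by their range over the 19 libraries other than mouse 1. The receptor chains Cd3d and Cd247 ranged from 0.401 to 4.65 TPM and from 4.37 to 14.9 TPM, and Cd8b1 from 0.791 to 15.6 TPM. The surface proteins Cd5 and Cd6, which tune receptor signals, ranged from 0.834 to 6.01 TPM and from 0.0945 to 3.04 TPM. The kinases Lck and Zap70, which act just below the receptor, ranged from 0.563 to 12.8 TPM and from 0.251 to 1.84 TPM. These ranges overlap the level of mouse 1 for Cd3d (0.676 TPM), Cd6 (0.233 TPM) and Lck (1.83 TPM) but not for the other 4 of these 7 genes. Tcf7 and Lef1, transcription factors of naive and memory T cells, ranged from 0.625 to 9.04 TPM and from 0.236 to 6.86 TPM. The lymphoid organ cytokine Ltb ranged from 0.868 to 16.8 TPM, and Cd27, a survival receptor, from 1.16 to 11.3 TPM. Of these 4 genes only Lef1 was higher in mouse 1 (0.449 TPM) than in another library, control HFD mouse 12.

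The first comparison asked whether loss of Tmem120a from adipocytes went with a different lymphocyte gene level on each diet. On LFD no member was called between knockout and control mice (edgeR quasi-likelihood test, Benjamini-Hochberg adjusted p under 0.1), against 0.00636% of the 15717 genes tested, and DESeq2 also called 0 of the 32, against 0.108% of all genes. Foxp3 passed the filter on low values (an average of 0.5 TPM or more across both groups) only through the knockout mice, in which it was high, and is kept out of the counts that follow. Of the other 31 members 0 had an unadjusted p under 0.05, against 5.11% of all genes, and 30 had a higher estimate in knockout mice. Their median log2 fold change was 0.46 beside -0.02 over all genes tested, but without mouse 1 it was 0.19 and 23 were higher. The log2 ratio of the group means of the summed TPM was 0.56, and 0.29 without mouse 1.
Foxp3 was at 0.0915, 0.463, 0.356, 0.365 and 0.207 TPM in control LFD mice and at 0.612, 0.892, 0.823, 0.449 and 0.874 TPM in knockout LFD mice. Only 1 knockout value lay within the control range. The log2 fold change was 1.19 ± 0.426 (SE) with an adjusted p of 0.929 over all genes (edgeR).
On HFD 31 members passed the filter on low values, Foxp3 being the exception, and none was called by edgeR or DESeq2. The background was 0.00657% of 15228 genes with edgeR and 0.657% with DESeq2, and 0 of the 31 had an unadjusted p under 0.05, against 4.66% of all genes. The median log2 fold change was -0.10 beside 0.01 over all genes, and it ran from -0.34 to 0.26 when each mouse was left out, so it had no settled sign. B cell members had a median of 0.20 (-0.09 to 0.45 when each mouse was left out) and T cell members of -0.20 (-0.54 to 0.21). For the difference of the genotype effect between diets, 0 of 31 members were called by edgeR or DESeq2 and 0 had an unadjusted p under 0.05, with 3.60% of 15574 genes under that p and a background of 0.0% called by edgeR and 0.0899% by DESeq2. Skeletal muscle genes had higher estimates in the same HFD comparison (10 of 10 with an unadjusted p under 0.05, none called, median log2 fold change 5.50), and their part in the member values was not tested.

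The second comparison was of diets. In control mice no member was called between HFD and LFD by edgeR or DESeq2, against 9.32% of 15311 genes called by edgeR and 14.4% by DESeq2, and 0 of 31 had an unadjusted p under 0.05, against 20.7% of all genes. The median log2 fold change of the members was -0.16 beside -0.04 over all genes, with 23 of 31 lower. It ran from -0.41 (without mouse 1, 29 of 31 lower) to 0.10 (without mouse 4, 8 of 31 lower) when each mouse was left out, and was above 0 with limma on log2(TPM + 0.1), at 0.13, so its sign was not settled. The summed TPM gave a log2 ratio of 0.11, which became -0.12 after rescaling by TMM factors and -0.17 without mouse 1, so its sign depended on scaling and on that library.

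In knockout mice some T cell genes were called lower on HFD. The diet response of knockout mice was not shown to differ from that of control mice. The difference of the genotype effect between diets is the same contrast, and 0 of 31 members were called for it (edgeR), against 0.0% of all genes. Il7r, Lat, Cd28, Bcl11b and Cd3e were called, 5 of the 31 members other than Foxp3 (16.1%), against 4.85% of 15705 genes called lower, and none of the 9 B cell members was called. With no filter on low values Cd3e was not called and 4 of these remained. Foxp3 was called as well, but it passed the filter only through the LFD mice, in which it was high, so it is given as a description and not counted. As the members move together, these calls are not independent ones. No member was called higher, against 4.55% of all genes. Of the 31 members 29 were lower, with a median log2 fold change of -0.77, and the median was -1.0 for the 22 T cell members without Foxp3 and -0.26 for the 9 B cell members, beside 0.00 over all genes tested. The B cell median ran from -0.55 (without mouse 17) to -0.12 (without mouse 6). An unadjusted p under 0.05 in the lower direction was reached by 12 of the 31, all T cell genes, against 10.1% of all genes.
White adipocyte genes stood higher in the same comparison. Their sum was 18510 ± 2433 TPM in knockout LFD and 26840 ± 4519 TPM in knockout HFD mice (SD, n = 5), 8 of 10 had a higher estimate and Lep was called (log2 fold change 2.41 ± 0.332, adjusted p = 0.00261 with edgeR). Their part in the lower T cell genes was not tested.
Il7r was at 20.8, 14.6, 14.7, 17.2 and 22.0 TPM in knockout LFD mice and at 9.18, 8.09, 6.22, 13 and 5.20 TPM in knockout HFD mice. Every HFD value was below every LFD value in these knockout mice, in which the level was 2.40-fold lower on HFD (log2 fold change -1.26 ± 0.262, adjusted p = 0.0181 with edgeR). Control mice covered 2.74 to 17.98 TPM on LFD and 3.35 to 18.73 TPM on HFD.
Lat, the membrane adaptor on which T cell receptor signals are assembled, was at 9.87, 11.2, 7.92, 6.61 and 13.1 TPM on LFD and at 5.57, 3.10, 4.08, 7.91 and 5.10 TPM on HFD. Only knockout HFD mouse 20 rose into the LFD range. The log2 fold change was -1.07 ± 0.286 (adjusted p = 0.0507 with edgeR). Control mice covered 1.28 to 12.36 TPM on LFD and 1.44 to 12.58 TPM on HFD.
Cd28, the costimulatory receptor, was at 7.69, 7.004, 4.73, 4.35 and 8.16 TPM on LFD and at 4.36, 2.55, 2.5, 4.32 and 1.45 TPM on HFD, and the groups met at mouse 9 (LFD) and mouse 17 (HFD). The fitted change was -1.07 ± 0.300 on the log2 scale (adjusted p = 0.0605 with edgeR). Bcl11b, a transcription factor that keeps T cell identity, was at 1.80, 1.88, 1.15, 1.05 and 1.59 TPM on LFD and at 1.15, 0.609, 0.452, 0.947 and 0.515 TPM on HFD. Its log2 fold change was -1.05 ± 0.298 (adjusted p = 0.0632 with edgeR). Control mice covered 1.787 to 6.205 TPM of Cd28 on LFD and 1.654 to 6.44 TPM on HFD. For Bcl11b they covered 0.373 to 1.245 TPM on LFD and 0.267 to 1.48 TPM on HFD.
Cd3e, whose values are given above, was 2.41-fold lower on HFD (log2 fold change -1.27 ± 0.403, adjusted p = 0.0932 with edgeR). Foxp3 was at 0.397, 0.300, 0.124, 0.475 and 0.185 TPM on HFD, and only mouse 20 reached the lowest LFD value of 0.449 TPM. It was 2.62-fold lower (log2 fold change -1.39 ± 0.445, adjusted p = 0.0956 with edgeR), with an adjusted p of 0.167 when no filter on low values was used.

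**Figure D4:**
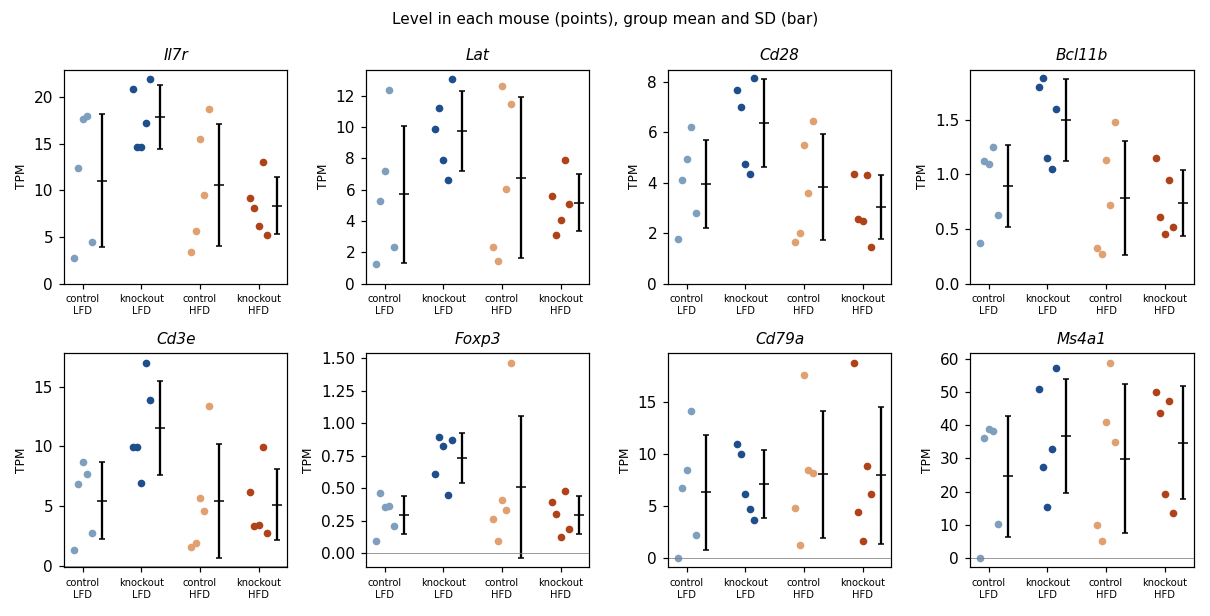
TPM in each mouse (points) with the group mean and SD (bar) for 5 T cell genes called lower on HFD in knockout mice, for Foxp3, which passed the filter only through the knockout LFD mice, and for the B cell genes Cd79a and Ms4a1. For Il7r the 5 knockout HFD points (5.20 to 13 TPM) lie below the 5 knockout LFD points (14.6 to 22.0 TPM), whereas for Cd79a and Ms4a1 the groups overlap.

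Of the T cell genes that were not called, Cd247 alone had an estimate above 0. Cd8a had the lowest estimate of all members (log2 fold change -1.41 ± 0.588) with an adjusted p of 0.201 (edgeR). Its HFD values were lowest in mice 18 and 19 (0.180 and 0.576 TPM) and highest in mice 17 and 20 (3.15 and 3.59 TPM). With Il7r it was 1 of 2 members whose groups did not overlap, against 2.94% of all genes lower without overlap. Ctla4 (-1.25 ± 0.441), the inhibitory receptor of activated and regulatory T cells, and Icos (-1.21 ± 0.436), a costimulatory receptor, had adjusted p values of 0.129 and 0.138 (edgeR), and Cd4 (-0.91 ± 0.315) one of 0.124. At the other end Cd247 was at 0.10 ± 0.256, Cd2 at -0.22 ± 0.301 and Zap70 at -0.49 ± 0.451. By list, 1 of 7 receptor and coreceptor genes was called lower, 1 of 6 surface and signalling genes and 1 of 3 transcription factors. So were 1 of 3 cytokine and survival genes and, leaving Foxp3 aside, Cd28 among the costimulatory receptors. Over all genes tested 4.85% were called lower, and lists this short cannot be ranked by single calls.
The B cell genes lay nearer to 0. Their log2 fold changes ran from -0.74 for Pax5 (SE 0.525, adjusted p = 0.483 with edgeR) to 0.07 for Cd79a (SE 0.510, adjusted p = 0.966 with edgeR). The T cell genes were not shown to differ from the B cell genes, since a difference between the sets of genes was not tested.

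**Figure D5:**
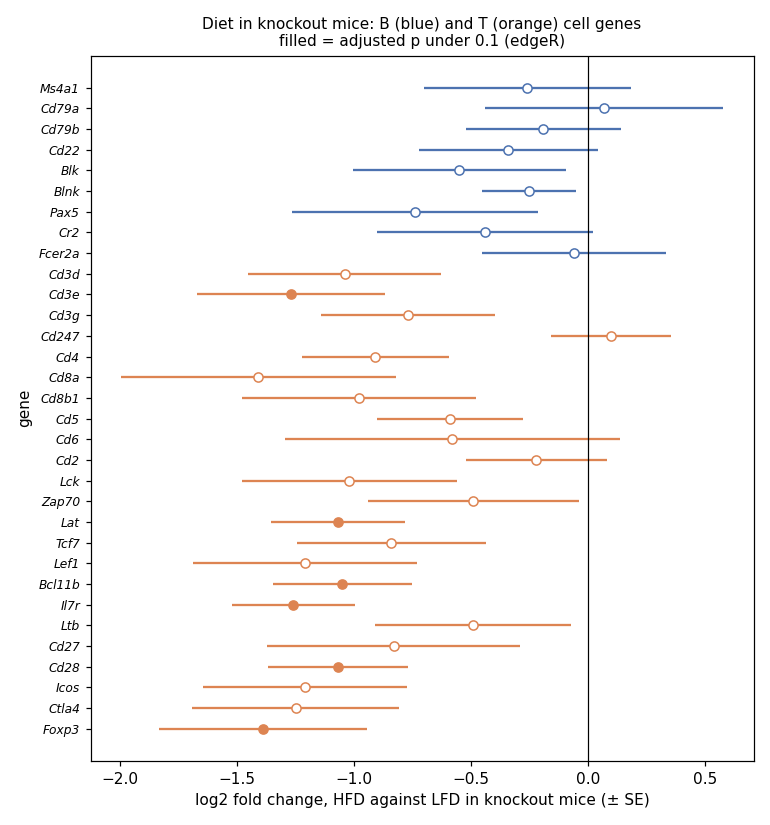
Log2 fold change of each member between HFD and LFD in knockout mice with its SE (edgeR), B cell genes in blue and T cell genes in orange, filled where the adjusted p was under 0.1. The 6 filled points, Foxp3 among them, are T cell genes between -1.05 and -1.39, and the 9 B cell genes lie between -0.74 and 0.07, all open.

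The number called rested on few mice and on the tool. With Foxp3 included it was 6 in all, 1 without mouse 6, 10 or 19, 2 without mouse 18 or 21, and 12 without mouse 20, and Il7r was called each time a mouse was left out. DESeq2 called 11 of the 31 members other than Foxp3 lower, all T cell genes, against 7.72% of all genes lower, whereas edgeR with all 4 groups in 1 fit called only Cd28.

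Node stroma genes moved in the same comparison, and their part in the lower T cell genes was not tested. Of 8 tested, 3 (37.5%) were called lower on HFD in knockout mice (edgeR), against 4.85% of 15705 genes. Across all 20 libraries 7 genes of this list passed the filter on low values. Not all 8 therefore passed it apart from the knockout mice, and the share is given as a description only. Glycam1 was at 294, 616, 739, 281 and 565 TPM on LFD and at 91.1, 13.2, 29.0, 149 and 51.7 TPM on HFD (log2 fold change -2.82 ± 0.588, adjusted p = 0.0182 with edgeR). Siglec1, which marks the macrophages of the node sinus, was at 4.19 to 10.5 TPM on LFD and at 1.48 to 2.98 TPM on HFD (-1.65 ± 0.271, adjusted p = 0.00563 with edgeR), and Tnfsf11 was the third. The groups did not overlap in Glycam1 or Siglec1 and overlapped in Tnfsf11. Siglec1 was also called lower on HFD in control mice (-1.39 ± 0.307, adjusted p = 0.0264 with edgeR), where no member was called. The summed level of the whole stroma list was 356 to 827 TPM in knockout LFD mice and 59.9 to 209 TPM in knockout HFD mice. Much of this sum was Glycam1, at 281 to 739 TPM and 13.2 to 149 TPM in these groups, so it largely repeats that gene. The median log2 fold change of the 8 tested genes was -1.03 (from -3.05 to -0.32), also a description because of the filter.
Other lymphocyte genes lay in the same direction. Of 36 further B and T cell genes none was called in knockout mice, with a median log2 fold change of -0.43, and 34 of the 36 were lower. Of the natural killer and cytotoxic genes 0 of 10 and of the plasma cell genes 0 of 6 were called. Ikzf2, 1 of 7 tested genes of resident T and innate lymphoid cells of fat, was called lower. The share of all genes called lower was 4.85%.

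Ratios of single genes within a library, on log2 values with 0.1 TPM added to each gene, were compared between groups by two-sided exact permutation tests. Across 12 tests (3 ratios in 4 comparisons) no ratio passed the test, with raw p from 0.119 to 0.944 and Benjamini-Hochberg adjusted p from 0.405 to 0.944, where 5 against 5 mice allow p as small as 0.00794. The log2 ratio of Cd79a to Cd3e, B against T cells, was 0.14, 0.02, -0.16, -1.82 and -1.90 in knockout LFD mice and 1.59, 0.42, -0.99, -0.16 and 1.12 in knockout HFD mice. The mean was 1.14 higher on HFD (exact permutation p = 0.119, adjusted p = 0.405, n = 5 per group), with mice 9 and 10 the low ones on LFD. In control mice the same ratio was 1.15 higher on HFD (exact permutation p = 0.270, n = 5 per group), and 0.41 higher without mouse 1.
Cd8a to Cd4 was 0.87 lower on HFD in knockout mice on the log2 scale (means -2.19 ± 1.01 and -1.33 ± 0.326, SD, n = 5, exact permutation p = 0.127), with mice 18 and 19 at -3.30 and -3.26 and the other 3 HFD mice between -1.66 and -1.19. Foxp3 to Cd4 differed by at most 0.54 in any comparison, but Foxp3 was near the added 0.1 TPM in several libraries (0.0901 TPM in mouse 12), as was Cd79a in mouse 1 (0.0161 TPM), so these ratios can still move with the amount of lymphocyte RNA. Beside these ratios stands that of 2 B cell genes, Ms4a1 to Cd79a. It ranged on the log2 scale from 1.03 to 3.93 in the 19 libraries other than mouse 1, with mice 10, 19 and 18 highest at 3.93, 3.45 and 3.27. Libraries 9, 15 and 18 had the fewest genes detected (16062, 16419 and 15872 genes over 3 estimated counts), and the part of library quality in single-gene ratios was not tested.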

How the data were processed

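Total RNA from iWAT of fasted mice was made into ribosome-depleted, stranded libraries and sequenced as paired reads. Per the methods and labels, the authors ran STAR 2.5.3 and Salmon 0.13.1, with transcripts of an mm9 annotation, and deposited transcript TPM and estimated counts for each library. Here 94334 of 96533 transcripts were matched to GENCODE vM1 and summed to 36611 genes, and the unmatched held 0.377% to 0.581% of the estimated counts. Rounded gene sums were fitted between pairs of groups with edgeR 4.0.16 (quasi-likelihood, TMM) in R 4.3.3, for genes that averaged 0.5 TPM or more across the groups compared. A gene was called at a Benjamini-Hochberg adjusted p under 0.1 over all genes tested. The edgeR and DESeq2 fits were tested on simulated counts for knockout against control on HFD only. The estimated counts carry no molecular identifiers. The mouse was the unit of replication, so the precision is that of 5 mice per group. The labels name separate mice, and depth was 54605101 estimated counts or more. The members and lists were chosen with earlier results of these data known. Every member could be named, with marker list genes as examples and the 10 genes most like the members' mean. Gene names shared by 2 identifiers took the one with the higher mean TPM. Alternatives were DESeq2 1.42.0, limma 3.58.1 on log2(TPM + 1) and log2(TPM + 0.1), other size factors, no filter, length offsets, 1 fit of all groups and leaving out each mouse. Leaving out mice for B and T cell sums, mouse 1 for correlations and Foxp3 for counts of members, was chosen after seeing the data. Sequences came from RefSeq tables.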

Additional observations from a re-analysis of the deposited data

Results flagged for a closer look

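The 4 groups were examined for a mouse far from the other 4, for each member and for the 3 sums (140 groups of 5 mice). In 2 of them, 1 value stood apart by Dixon's criterion, a gap to the nearest mouse of over 0.71 of the group's range, which chance alone would flag in about 1 in 20 groups. Both were in control HFD mouse 15. Its Lef1 level was 6.86 TPM against 0.236 to 2.08 TPM in the other control HFD mice (gap over range 0.721). Its Foxp3 level was 1.46 TPM against 0.0901 to 0.407 TPM (gap over range 0.769). Control LFD mouse 1 was not marked in this way in any member, and mouse 5 of its group was low as well.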

How the results depend on the processing

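No paired analysis was possible because each mouse had its own replicate number and the groups shared none. For knockout against control on either diet, for diet in control mice and for the difference between diets, 0 members were called under every alternative. For HFD against LFD in knockout mice the 6 calls, Foxp3 included, became 12 with DESeq2 and 1 with all 4 groups in one fit. They became between 1 and 12 when each mouse was left out, and the cause was not tested. Foxp3 passed the filter only through the LFD mice, and without it the count was 5, or 11 with DESeq2. Il7r was below the threshold in each fit except that of all 4 groups (adjusted p = 0.115 with edgeR). Leaving out each mouse, the log2 ratio of summed TPM ran from -0.21 to 0.25 (knockout against control, HFD), 0.29 to 0.86 (LFD), -0.17 to 0.40 (diet, control) and -0.61 to -0.29 (diet, knockout). The difference in the log2 ratio of Cd79a to Cd3e ran from -0.88 to 0.24 (genotype, LFD), -0.46 to 0.20 (genotype, HFD), 0.41 to 1.52 (diet, control) and 0.84 to 1.48 (diet, knockout). That of Cd8a to Cd4 ran from -0.49 to -0.21, -1.08 to -0.55, -0.54 to -0.26 and -1.12 to -0.59 in the same order, and that of Foxp3 to Cd4 from -0.36 to 0.15, -0.85 to -0.33, -0.03 to 0.50 and -0.51 to 0.01. With a pseudocount of 1 the difference in Foxp3 to Cd4 for diet in knockout mice changed sign to 0.39, and on estimated counts the LFD genotype differences in Cd79a to Cd3e and Foxp3 to Cd4 changed sign to 0.36 and 0.15, none of which passed the exact permutation test. In 4 leave-one-out settings a Cd8a to Cd4 or Foxp3 to Cd4 difference reached a raw p under 0.05. With 5 mice per group and up to 11.5-fold spread in Ms4a1 among 19 libraries, only large differences in lymphocyte RNA could be detected.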
